A study of Mus musculus with 12 samples.

Results

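The expression of 10 mouse genes for metabolic nuclear receptors and their coactivators was examined in colonic epithelial cells that carry or lack the transcription factor TFEB. The genes were chosen by name: the PPAR receptors *Ppara*, *Ppard* and *Pparg*, the LXR receptors *Nr1h3* (LXRα) and *Nr1h2* (LXRβ), the xenobiotic receptor *Nr1i2* (PXR), the vitamin D receptor *Vdr*, their shared partner *Rxra*, and the coactivators *Ppargc1a* (PGC-1α) and *Ppargc1b* (PGC-1β). All 10 were among the 47632 genes of each expression table, with 1 row per gene. Epithelial cells had been stripped with EDTA from the colons of C57/BL6 mice, and full-length cDNA libraries were sequenced. Control animals (*Tfeb* flox/flox, labelled WT) carried 2 floxed copies of the gene, and *Tfeb* ΔIEC animals (labelled KO) also carried Cre recombinase under the villin promoter, which is active in the epithelium of both small intestine and colon. Cells were taken on Day 0 without treatment, on Day 4, while the epithelial toxin dextran sulfate sodium (DSS, 2.5% per the labels, while the study's methods give another concentration) was still in the drinking water, and on Day 11, after it had been replaced by water. Each of the 6 groups held 2 animals, 12 in all. The Day 0 animals of each genotype were labelled 12 and 10 weeks old, the Day 4 animals 12 weeks and the Day 11 animals 10 weeks, so age and day cannot be told apart between Days 4 and 11.

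Nuclear receptors are transcription factors switched by small lipophilic molecules. PPARα and PPARδ are activated by fatty acids and induce genes of fatty acid oxidation. PPARγ, best known as the regulator of fat cells, is also abundant in colonocytes, where it is induced by butyrate and restrains inflammation. LXRs respond to oxysterols and induce cholesterol efflux, PXR responds to bile acids and xenobiotics and induces detoxifying enzymes, and VDR responds to calcitriol and induces calcium transport. All of these bind DNA as heterodimers with RXR, often at repeats of the hexamer AGGTCA. PGC-1α and PGC-1β do not bind DNA but dock on receptors and raise mitochondrial gene expression. In fasting liver TFEB is known to induce *Ppargc1a* and *Ppara*, which links it to lipid breakdown, and TFEB itself binds the E-box CACGTG.

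Expression was given as FPKM, fragments per kilobase of transcript scaled to the depth of the library, so levels can be compared between genes per length. Each genotype has 1 value per day, which the authors' software made from both animals, so the spread between animals is not known and no test between the genotypes was made. In its place, a difference was called past the 2-fold line where FPKM was at least 1 in either genotype and the difference of log2(FPKM + 1), *Tfeb* ΔIEC minus *Tfeb* flox/flox, was at least 1 in size. Folds on that scale understate changes of low genes. On Day 0, 13.5% of 9993 genes lay past this line with higher expression in *Tfeb* ΔIEC cells and 16.1% with lower. On Day 4 the shares were 25.6% and 26.1% of 9371 genes, and on Day 11 they were 26.1% and 25.7% of 9365 genes. The lowest values of genes with a single annotated transcript lay near a common step per kilobase of 0.362 to 0.592 FPKM, taken here as 1 sequenced fragment. It gives rough fragment numbers for each gene and exact 95% counting intervals, which do not cover the variation between animals.

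*Tfeb*, the deleted gene, was at 0.901 FPKM in *Tfeb* flox/flox and 0.185 FPKM in *Tfeb* ΔIEC cells on Day 0, at 1.08 FPKM and 0 on Day 4, and at 1.18 FPKM and 0 on Day 11. The *Tfeb* values therefore followed the genotype labels, though levels under about 2 FPKM rest on few fragments. All 10 colonocyte markers were above 1 FPKM in every group, led by carbonic anhydrase *Car1*, whereas the adipocyte genes *Adipoq* and *Plin1* were listed at 0 throughout. The Day 4 and Day 11 values of a genotype were nearly the same: their FPKM was identical for 14.3% of the genes detected on both days in control cells and for 10.2% in *Tfeb* ΔIEC cells, against 0 genes between Days 0 and 4. None of the 10 genes had identical values, and on the log2(FPKM + 1) scale they differed by at most 0.39 between those days. How the 2 days came to share values was not tested, and Day 11 is given beside Day 4 below without being counted as a second observation.

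In mm10, *Pparg* spans chr6:115360951-115490399 and *Ppard* chr17:28232754-28301469, both on the forward strand. *Ppara* (chr15:85734983-85802819, forward) and *Vdr* (chr15:97854425-97910630, reverse) share a chromosome. The others placed here are *Nr1h2* (chr7:44549616-44553951, reverse), *Nr1h3* (chr2:91184061-91202834, reverse), *Rxra* (chr2:27676440-27762957, forward), *Nr1i2* (chr16:38248323-38294824, reverse) and *Ppargc1a* (chr5:51454250-51567726, reverse). No exon of the 10 genes overlapped an exon of another gene in GENCODE M21, and 99.9% to 100% of their 50-base words occurred in no other gene, so reads of related receptors could be told apart.

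Start regions were read from RefSeq on GRCm38.p6, the same assembly as mm10, for 9 of the genes, with 13 windows of 250 bases before to 50 bases after a start. The E-box CACGTG, which reads the same on both strands, was in 0 of the 13 windows and in 7.15% of all 32851 RefSeq windows. AGGTCA, searched on both strands, was in 3 of the 13 windows, those of 2 *Pparg* starts and of 1 *Rxra* start, and in 16.3% of all windows. The 30 bases around each match are shown because this hexamer is the element that the receptors themselves bind, with the hexamer, or TGACCT as its reverse complement, in capitals. The 2 *Pparg* matches lie within annotated first exons (chr6:115361104-115361133 and chr6:115362328-115362357), the *Rxra* matches outside of any exon (chr2:27709193-27709222 and chr2:27709232-27709261), all on the forward strand.
Pparg, start 1: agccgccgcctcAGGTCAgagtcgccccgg
Pparg, start 2: agggacgcgaggAGGTCAagaaggggcctg
Rxra, upstream match: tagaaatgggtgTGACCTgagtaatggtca
Rxra, downstream match: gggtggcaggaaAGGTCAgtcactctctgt

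The 120 exon-free bases nearest to a start are shown for *Pparg*, *Vdr* and *Ppard*, at chr6:115362172-115362291 and chr6:115421946-115422065 (*Pparg*, starts 2 and 3, forward), chr15:97908311-97908430 (*Vdr*, reverse) and chr17:28232580-28232699 (*Ppard*, forward). They hold neither motif, so nothing is in capitals. *Ppara* was searched as well, but its nearest exon-free stretch was shorter. The window at *Pparg* start 3 was AT-rich, with 35.8% G and C and 1 CpG, whereas the windows at *Pparg* start 2, *Vdr* and *Ppard* had 64.2% to 68.3% G and C and 6 to 9 CpGs. The deposited values do not tell which *Pparg* start was used.
Pparg, start 2: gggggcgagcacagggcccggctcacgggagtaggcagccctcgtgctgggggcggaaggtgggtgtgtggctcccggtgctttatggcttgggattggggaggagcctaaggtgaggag
Pparg, start 3: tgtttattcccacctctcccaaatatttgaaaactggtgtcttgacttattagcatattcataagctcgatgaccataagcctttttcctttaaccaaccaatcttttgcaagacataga
Vdr: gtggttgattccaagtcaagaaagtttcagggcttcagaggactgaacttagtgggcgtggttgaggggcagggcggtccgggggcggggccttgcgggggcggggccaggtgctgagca
Ppard: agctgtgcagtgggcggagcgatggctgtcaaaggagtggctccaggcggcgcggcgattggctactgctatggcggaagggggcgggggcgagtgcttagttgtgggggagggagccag

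In untreated *Tfeb* flox/flox epithelium the order of levels was *Vdr* (19.0 FPKM), *Pparg* (15.6), *Nr1h2* (9.64), *Ppara* (5.72), *Ppard* (4.13), *Rxra* (1.97), *Ppargc1a* (1.62), *Nr1h3* (1.43), *Nr1i2* (1.40) and *Ppargc1b* (1.11). The counting intervals of every pair of neighbours in this order overlapped. *Vdr* and *Pparg* were in the upper ranks of the transcriptome, at percentiles 86.6 and 84.8 of the genes above 0, and *Ppargc1b* at 37.4. In untreated *Tfeb* ΔIEC epithelium *Pparg* (36.2 FPKM) and *Vdr* (31.8 FPKM) led, and *Vdr* lay above *Nr1h2* (10.1 FPKM) without overlap of their intervals. The same 3 genes led *Tfeb* ΔIEC cells on Days 4 and 11. In *Tfeb* flox/flox cells *Nr1h2* had the highest value on Days 4 and 11, at 8.15 and 9.43 FPKM, with an interval that overlapped that of the next gene, *Vdr* on Day 4 and *Ppard* on Day 11.

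**Figure D1:**
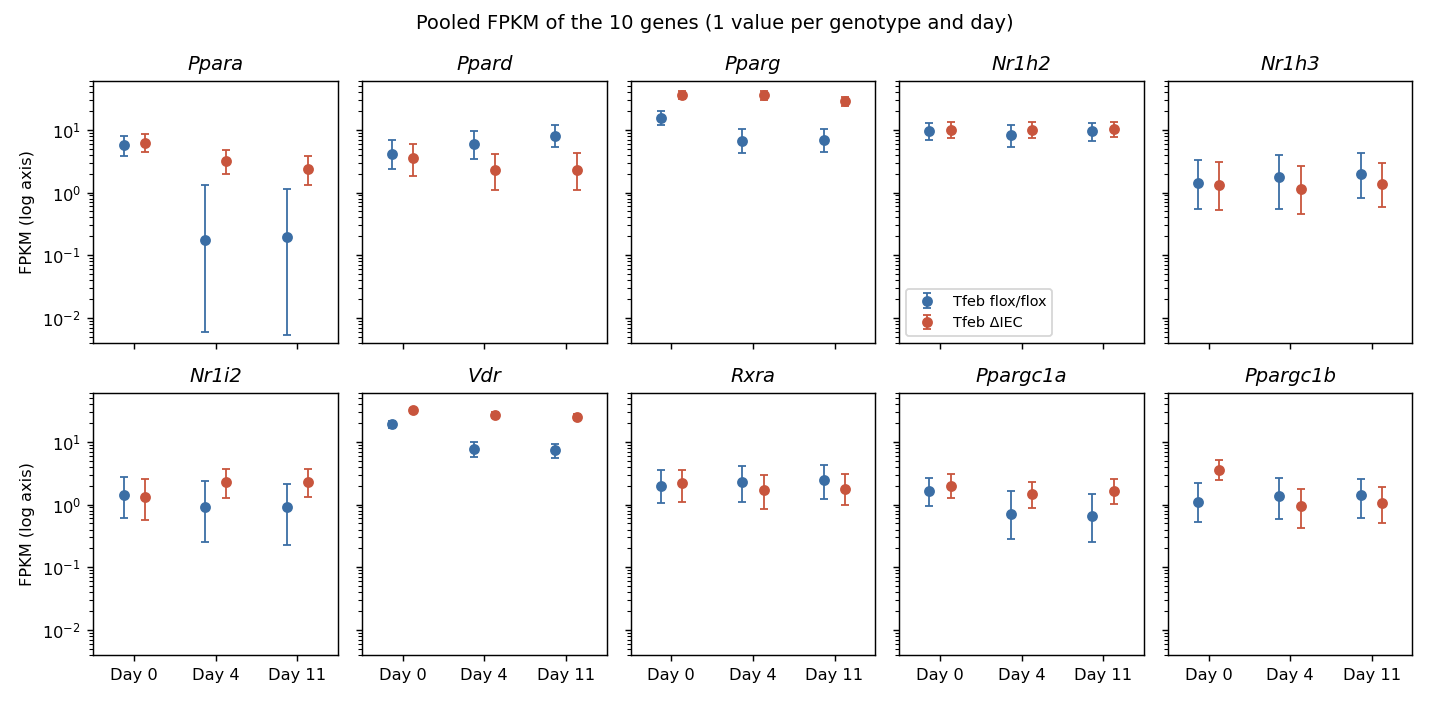
FPKM of each gene (log axis) on Days 0, 4 and 11 in *Tfeb* flox/flox (blue) and *Tfeb* ΔIEC (red) cells, 1 pooled value per point, with bars for the approximate 95% counting interval. *Pparg* and *Vdr* lie higher in *Tfeb* ΔIEC cells on every day, *Ppara* lies far apart on Days 4 and 11, where its *Tfeb* flox/flox value is near 1 fragment, and *Ppard* lies lower in *Tfeb* ΔIEC cells on Days 4 and 11.

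The 3 PPAR genes did not move together. *Pparg* was higher in *Tfeb* ΔIEC cells on every day, *Ppara* was higher on Days 4 and 11, and *Ppard* was lower on Days 4 and 11. Across days, only ranks and ratios within a group can be set side by side without the scaling. Each day has its own table, and whether the tables share a scale is not known.

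*Pparg* stood at 15.6 FPKM in *Tfeb* flox/flox and 36.2 FPKM in *Tfeb* ΔIEC cells on Day 0, at 6.65 and 35.3 FPKM on Day 4, and at 6.98 and 28.7 FPKM on Day 11. The *Tfeb* ΔIEC value was 2.32 times the control value on Day 0 (counting interval 1.73 to 3.16), 5.30 times on Day 4 (3.29 to 8.58) and 4.11 times on Day 11 (2.69 to 6.72). Its log2 differences were 1.16, 2.25 and 1.90, and 94.6% of all genes had a smaller difference on Day 4 and 91.5% on Day 11. With a pseudocount of 5 FPKM the Day 0 difference was 0.9991, just short of the 2-fold line. By rank among the genes above 0, *Pparg* was at percentile 84.8 on Day 0 and 73.4 on Day 4 in *Tfeb* flox/flox cells and at 91.7 and 91.1 in *Tfeb* ΔIEC cells, so its wider gap on Day 4 went with a lower rank in the control cells.

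*Ppara*, the fatty acid sensor best known from liver, was at 5.72 and 6.18 FPKM on Day 0, in the order *Tfeb* flox/flox and *Tfeb* ΔIEC, at 0.176 and 3.23 FPKM on Day 4, and at 0.192 and 2.36 FPKM on Day 11. The genotypes lay close together before treatment, with a ratio of 1.08 (counting interval 0.664 to 1.82), and far apart on Days 4 and 11. The control values of Days 4 and 11 correspond to about 1 fragment each, against about 22 and 16 fragments in *Tfeb* ΔIEC cells. The ratio of 18.3 on Day 4 therefore had an interval of 2.17 to 555, and that of 12.3 on Day 11 one of 1.74 to 469. On the scale with a pseudocount, the differences were 0.09, 1.85 and 1.49. In *Tfeb* flox/flox cells *Ppara* went from percentile 71.0 on Day 0 to 7.03 on Day 4. It passed the filter on low values on Days 4 and 11 through the *Tfeb* ΔIEC value only. With a pseudocount of 5 FPKM its differences of 0.67 on Day 4 and 0.50 on Day 11 were short of the 2-fold line, as was 0.86 on Day 11 with the median of genes of the same length subtracted.

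*Ppard*, the PPAR of widest tissue distribution, was at 4.13 FPKM in *Tfeb* flox/flox and 3.53 FPKM in *Tfeb* ΔIEC cells on Day 0, with a ratio of 0.853 (0.359 to 1.85). On Day 4 it was at 5.93 and 2.32 FPKM and on Day 11 at 8.10 and 2.25 FPKM, so that the control value was the higher by 2.56 and 3.60 times. The intervals of the ratio, *Tfeb* ΔIEC over control, were 0.155 to 0.896 on Day 4 and 0.120 to 0.603 on Day 11. Its log2 differences of −1.06 and −1.49 exceeded those of 24.5% and 16.6% of all genes, and no other gene of the 10 lay past the 2-fold line in the lower direction. When each value was divided by the sum of its group, *Ppard* stayed lower on Days 4 and 11 but not past the line, at −0.40 and −0.80, where the median of all genes was 0.75 and 0.76. With a pseudocount of 5 FPKM it was also short of the line, at −0.58 and −0.85.

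Per length, *Pparg* made up 61.3% of the summed FPKM of the 3 PPAR genes in untreated control cells, *Ppara* 22.5% and *Ppard* 16.2%. In untreated *Tfeb* ΔIEC cells the shares were 78.9%, 13.5% and 7.68%. On Day 4 control cells had 52.1% *Pparg*, 1.38% *Ppara* and 46.5% *Ppard*, whereas *Tfeb* ΔIEC cells had 86.4%, 7.92% and 5.68%. On Day 11 control cells had 45.7% *Pparg* and 53.0% *Ppard*, and *Tfeb* ΔIEC cells 86.2% and 6.75%. In control cells the counting intervals of *Pparg* and *Ppard* overlapped on Days 4 and 11, so their order there is not settled, whereas *Pparg* was the leading form in *Tfeb* ΔIEC cells on each day. These shares do not depend on how a group was scaled. In bulk cells, fewer cells of a type and less RNA per cell cannot be told apart.

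*Vdr*, the receptor for calcitriol, was the best measured of the 10 genes, with about 56 to 330 fragments in each value. It was at 19.0 FPKM in *Tfeb* flox/flox and 31.8 FPKM in *Tfeb* ΔIEC cells on Day 0, at 7.62 and 26.7 FPKM on Day 4, and at 7.30 and 24.8 FPKM on Day 11. Within each day, the *Tfeb* ΔIEC value was the higher. The ratio of 1.67 on Day 0 (1.39 to 2.01) was followed by 3.51 on Day 4 (2.65 to 4.77) and 3.40 on Day 11 (2.58 to 4.56). The log2 differences were 0.71, 1.69 and 1.64, so *Vdr* was past the 2-fold line on Days 4 and 11 and short of it on Day 0.

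*Nr1i2*, the PXR gene, was low, with about 4 to 16 fragments in each value. It was at 1.40 and 1.31 FPKM on Day 0, at 0.924 and 2.26 FPKM on Day 4, and at 0.918 and 2.28 FPKM on Day 11. The ratio on Day 4 was 2.44 with an interval of 0.789 to 10.1, so a difference was not detectable at this depth. Its log2 differences of 0.76 and 0.77 on Days 4 and 11 were below the 2-fold line. They were past it with a pseudocount of 0.1 FPKM, at 1.20 and 1.22, and with each value divided by the sum of its group, at 1.20 and 1.21.

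The LXR genes and *Rxra* were short of the 2-fold line on every day, and the counting intervals of their ratios held 1. *Nr1h2*, the widely expressed LXRβ, was at 9.64 and 10.1 FPKM on Day 0, at 8.15 and 9.99 FPKM on Day 4 and at 9.43 and 10.3 FPKM on Day 11, and the interval of its Day 4 ratio ran from 0.757 to 2.02. Its direction is not settled either, since the log2 difference of 0.26 on Day 4 was 1.01 when each value was divided by the sum of its group and −0.19 with the median of genes of the same length subtracted. *Nr1h3*, the LXRα that predominates in liver and macrophages, was at 1.43 and 1.33 FPKM on Day 0, at 1.79 and 1.15 FPKM on Day 4, and at 1.98 and 1.35 FPKM on Day 11, on about 5 to 7 fragments. *Rxra*, the obligate partner, was at 1.97 and 2.17 FPKM on Day 0, at 2.33 and 1.70 FPKM on Day 4, and at 2.50 and 1.78 FPKM on Day 11. The log2 differences of *Nr1h3* and *Rxra* on Day 4, −0.38 and −0.30, turned to 0.11 and 0.25 when each value was divided by the sum of its group, so neither has a settled direction. With the median of genes of the same length subtracted, *Rxra* was past the 2-fold line downward, at −1.002 on Day 4 and −1.07 on Day 11.

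*Nr1h2* exceeded *Nr1h3* per length in every group, by 4.55 to 8.69 times. The summed FPKM of the 7 partner receptors was 28.9 times that of *Rxra* in untreated control cells and 41.6 times in untreated *Tfeb* ΔIEC cells. On Day 4 the multiples were 13.4 and 47.7. With *Rxrb* and *Rxrg* counted as well, partners exceeded RXR transcripts 20.7 and 23.3 times on Day 0 and 7.73 and 23.9 times on Day 4. The gap between the genotypes in this ratio was thus wider on Day 4 than on Day 0, and *Pparg* and *Vdr* made up most of the partner sum in *Tfeb* ΔIEC cells.

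The coactivator genes were at 3.63 FPKM or less in every group. *Ppargc1a*, the PGC-1 form induced by fasting and cold, was at 1.62 FPKM in *Tfeb* flox/flox and 1.99 FPKM in *Tfeb* ΔIEC cells on Day 0, at 0.715 and 1.49 FPKM on Day 4, and at 0.648 and 1.63 FPKM on Day 11. The *Tfeb* ΔIEC value was the higher on each day, but the interval of the ratio held 1 on each day, with 0.743 to 5.92 on Day 4. The Day 11 log2 difference of 0.67 was past the 2-fold line with a pseudocount of 0.1 FPKM (1.21) and with each value divided by the sum of its group (1.04), and that of Day 0 turned from 0.19 to −0.25 with the median of genes of the same length subtracted. *Ppargc1b*, its relative, was at 1.11 and 3.63 FPKM on Day 0, past the 2-fold line with a ratio of 3.28 (1.46 to 7.56). Its log2 difference of 1.13 was short of the line at 0.50 with a pseudocount of 5 FPKM and at 0.71 with the median of genes of the same length subtracted. On Day 4 it was at 1.38 and 0.965 FPKM and on Day 11 at 1.41 and 1.05 FPKM, where the intervals of the ratio held 1 and the sign turned when each value was divided by the sum of its group. Hence *Ppargc1b* exceeded *Ppargc1a* 1.82 times in *Tfeb* ΔIEC cells and was 0.683 times its level in control cells on Day 0, and the order was the other way on Day 4, with 0.646 in *Tfeb* ΔIEC and 1.93 in control cells. The counting intervals of the 2 genes overlapped in each of these groups, so their order is not settled.

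**Figure D2:**
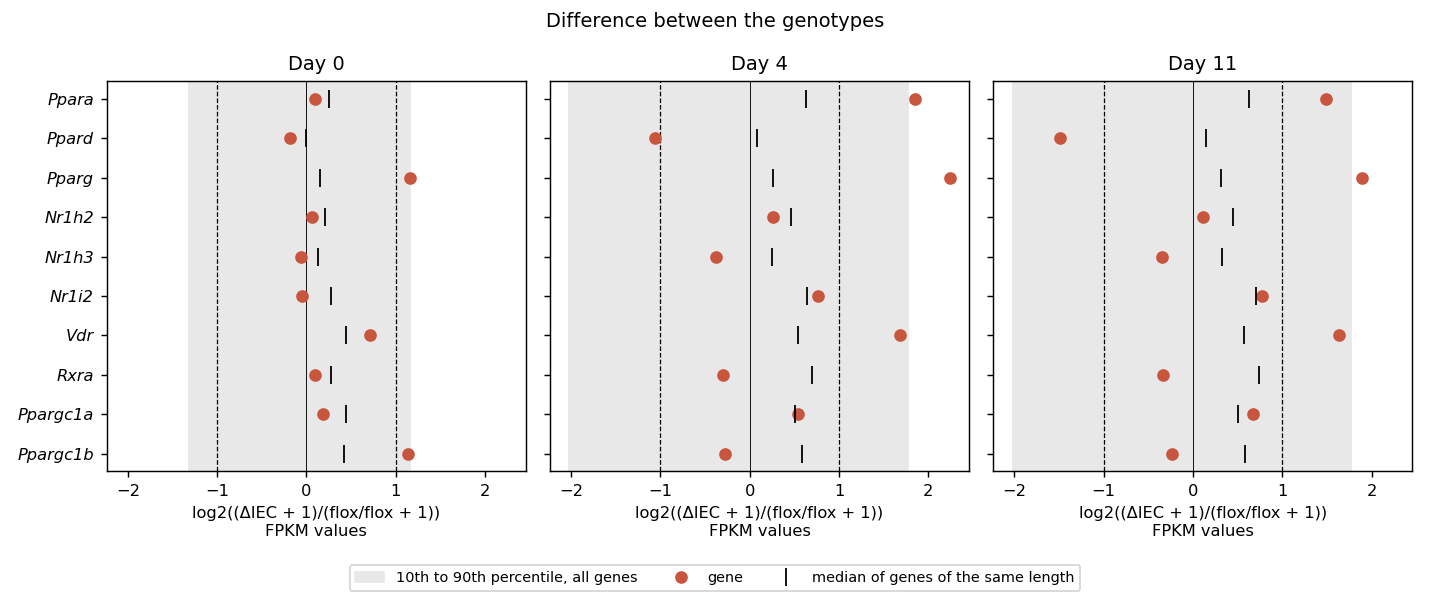
Difference of log2(FPKM + 1), *Tfeb* ΔIEC minus *Tfeb* flox/flox, for each gene (red points) on Days 0, 4 and 11, with the 10th to 90th percentile of all genes (grey), the running median of genes of the same transcript length (ticks) and the 2-fold lines (dashed). *Pparg* lies beyond the grey band on Days 4 and 11 and *Ppara* on Day 4, *Ppard* is the only gene past the lower line, and *Rxra*, *Nr1h3* and *Ppargc1b* on Days 4 and 11 change sign when values are divided by the sum of their group.

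On Day 0, 2 of the 10 genes were past the 2-fold line upward (*Pparg* and *Ppargc1b*, 20% against 13.5% of all genes) and 0 downward (against 16.1%). On Day 4 and again on Day 11, 3 were past it upward (*Pparg*, *Vdr* and *Ppara*, 30% against 25.6% and 26.1%) and 1 downward (*Ppard*, 10% against 26.1% and 25.7%). The upward shares are near those of all genes, and the downward shares are below them. Among genes with transcript lengths in the range of the 10 genes, 6.36%, 11.9% and 11.6% were downward on the 3 days. No test of the set was made, so the results concern single genes rather than the set. All 10 passed the filter on every day, but 4 on Day 4 and 3 on Day 11 did so through 1 genotype only. The median difference of the 10 genes was 0.09, 0.40 and 0.39 on the 3 days, against 0.06, 0.06 and 0.08 over all genes. With values divided by the sum of their group, all genes shifted to a median of 0.75 on Day 4 and 0.76 on Day 11, and 5 of the 10 genes were past the line upward and 0 downward on either day. Relative to that shift, the counts were again 3 and 1.

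Differences between the genotypes varied with transcript length. On Day 4 the median difference ran from −1.83 in the decile of genes with the shortest transcripts to 0.65 in the decile of 2842 to 3492 nt. The 10 genes have median transcript lengths of 1597 to 4609 nt, and in that range 34.1% of genes were past the line upward and 11.9% downward on Day 4. Set against genes of their own length, 5 of the 10 lay above the median and 5 below it on Day 4. *Pparg* exceeded that median by 1.99, *Ppara* by 1.22 and *Vdr* by 1.14, whereas *Ppard* differed from it by −1.15, *Rxra* by −1.002 and *Ppargc1b* by −0.86. *Ppargc1a* and *Nr1i2* were at their length medians, with residuals of 0.03 and 0.12. The part of length in these values was not tested.

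**Figure D3:**
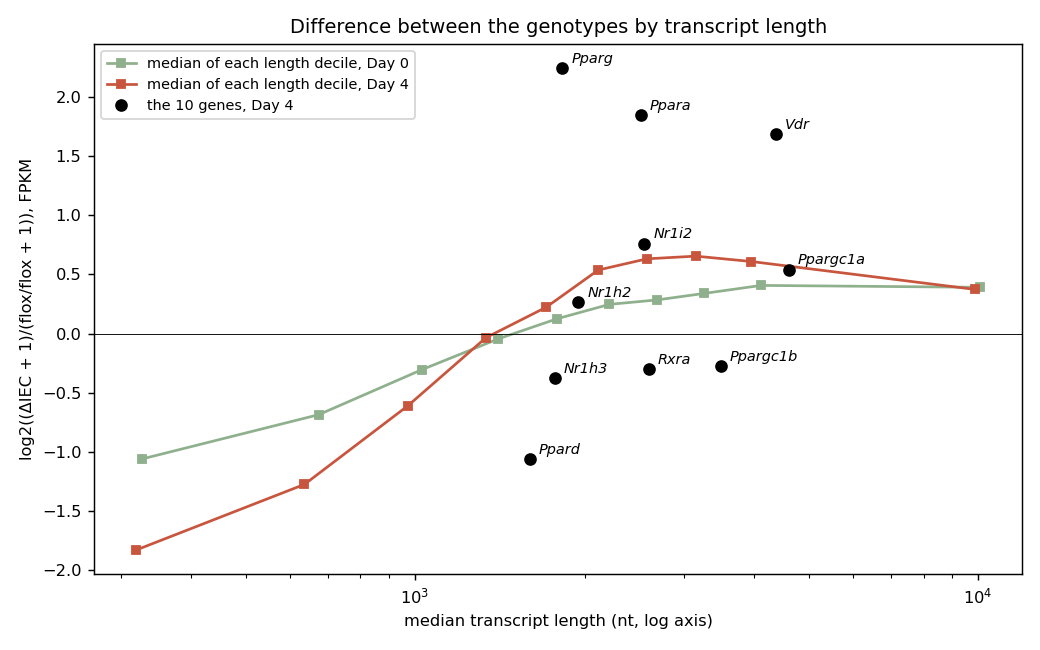
Difference of log2(FPKM + 1), *Tfeb* ΔIEC minus *Tfeb* flox/flox, against median transcript length (nt, log axis), with the median of each length decile on Day 0 (green) and Day 4 (red) and the 10 genes on Day 4 (black). Short transcripts lie below 0 and long ones above it, and *Pparg*, *Ppara* and *Vdr* lie above the Day 4 line while *Ppard*, *Rxra*, *Ppargc1b* and *Nr1h3* lie below it. *Rxra*, *Ppargc1b* and *Nr1h3* change sign when values are divided by the sum of their group.

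Genes that the receptors are known to induce were examined as lists, without a test. On Day 0, of 27 PPAR targets 18 were above the filter, of which 1 was past the 2-fold line upward (*Cpt1a*) and 1 downward (*Fabp2*), with a median of 0.12. Over all genes of the length range of the 10 genes, 34.1% were upward and 11.9% downward on Day 4, beside the 25.6% and 26.1% of all genes, and the counts of the lists below are to be read against these shares. On Day 4, 11 of 19 PPAR targets (57.9%) were past it upward and 1 downward, the hepatic factor *Creb3l3* at 7.81 and 1.24 FPKM, and the median was 1.04, against 0.56 for all genes in that length range. Among the 11, *Angptl4* (0 and 1.06 FPKM) passed the filter through the *Tfeb* ΔIEC value only, and over all 27 listed genes without a filter the median was 0.57. *Cpt1a*, which admits fatty acids to mitochondria, was at 4.21 and 27.6 FPKM on Day 4, and the trifunctional protein gene *Hadha* at 21.8 and 135 FPKM. The most abundant target of untreated control cells, the fatty acid carrier *Fabp2*, was at 852 and 799 FPKM on Day 4. *Fabp1*, *Cd36*, *Cyp4a10* and *Cyp4a14* were listed at 0 in every group. After the median of genes of the same length was subtracted, the PPAR list's median on Day 4 was 0.55.

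PXR targets showed a similar picture. On Day 0, 0 of 10 were past the line upward and 1 downward, the esterase *Ces2a*. On Day 4, 6 of 11 (54.5%) were past it upward and 0 downward, with a median of 1.56, or 0.83 over all 14 listed genes without a filter and 1.12 after the median of genes of the same length was subtracted. *Cyp2c55*, a cytochrome of the colon and the most abundant of the list, was at 1614 and 1748 FPKM on Day 0 and at 277 and 2073 FPKM on Day 4. *Cyp3a13* was at 0.752 and 10.5 FPKM on Day 4, above the filter in *Tfeb* ΔIEC cells only, and the bilirubin-conjugating enzyme *Ugt1a1* at 12.5 and 75.9 FPKM. The hepatic PXR targets *Cyp3a11* and *Cyp2b10* were listed at 0. On Day 11 the counts of both lists were as on Day 4, with 11 of 19 PPAR and 6 of 11 PXR targets upward, against 34.5% of genes in the length range of the 10 genes.

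Of 4 VDR targets above the filter on Day 4, 2 were past the line upward, the claudins *Cldn2* (3.09 and 13.1 FPKM) and *Cldn12* (0.832 and 3.75 FPKM), the latter above the filter in *Tfeb* ΔIEC cells only. On Day 11, 3 of 4 were past it upward, and the share of all genes in the length range of the 10 genes was 34.1% on Day 4 and 34.5% on Day 11. *S100g*, the calcium-binding calbindin D9k and a classical VDR target, went the other way, at 42.9 and 30.9 FPKM on Day 0 and at 179 and 25.3 FPKM on Day 4. Its transcript of 480 nt is in the shortest decile of genes, whose median was −1.83. *Cyp24a1*, the calcitriol-degrading enzyme that is the most responsive VDR target, was listed at 0 in every group, and the calcium channel *Trpv6* was at 0.126 FPKM in *Tfeb* ΔIEC and 0 in control cells on Day 4. Higher *Vdr* in *Tfeb* ΔIEC cells was thus not accompanied by higher values of all of its targets.

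For LXR, 1 of 10 targets above the filter was past the line upward on Day 0 (*Scd2*) and 1 downward (*Apoe*), with a median of 0.52. On Day 4, 3 of 8 were past it upward and 1 downward, with a median of 0.74, and on Day 11 the counts were 2 and 1. The share of 37.5% upward on Day 4 was near the 34.1% of all genes in the length range of the 10 genes, and the median was 0.36 on Day 4 and 0.14 on Day 11 after the median of genes of the same length was subtracted. Without a filter the Day 4 median over all 15 listed genes was 0.28. The phosphodiesterase *Smpdl3a* was at 21.03 and 90.1 FPKM, the phospholipid-remodelling enzyme *Lpcat3* at 10.6 and 34.8 FPKM and the lipogenic factor *Srebf1* at 3.47 and 10.9 FPKM. The phospholipid transfer gene *Pltp* was at 2.65 and 0.451 FPKM. The cholesterol exporters *Abca1*, *Abcg1*, *Abcg5* and *Abcg8* were at 0 in control cells on Day 4 and at 0.0768 to 0.537 FPKM in *Tfeb* ΔIEC cells, too low to compare.

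**Figure D4:**
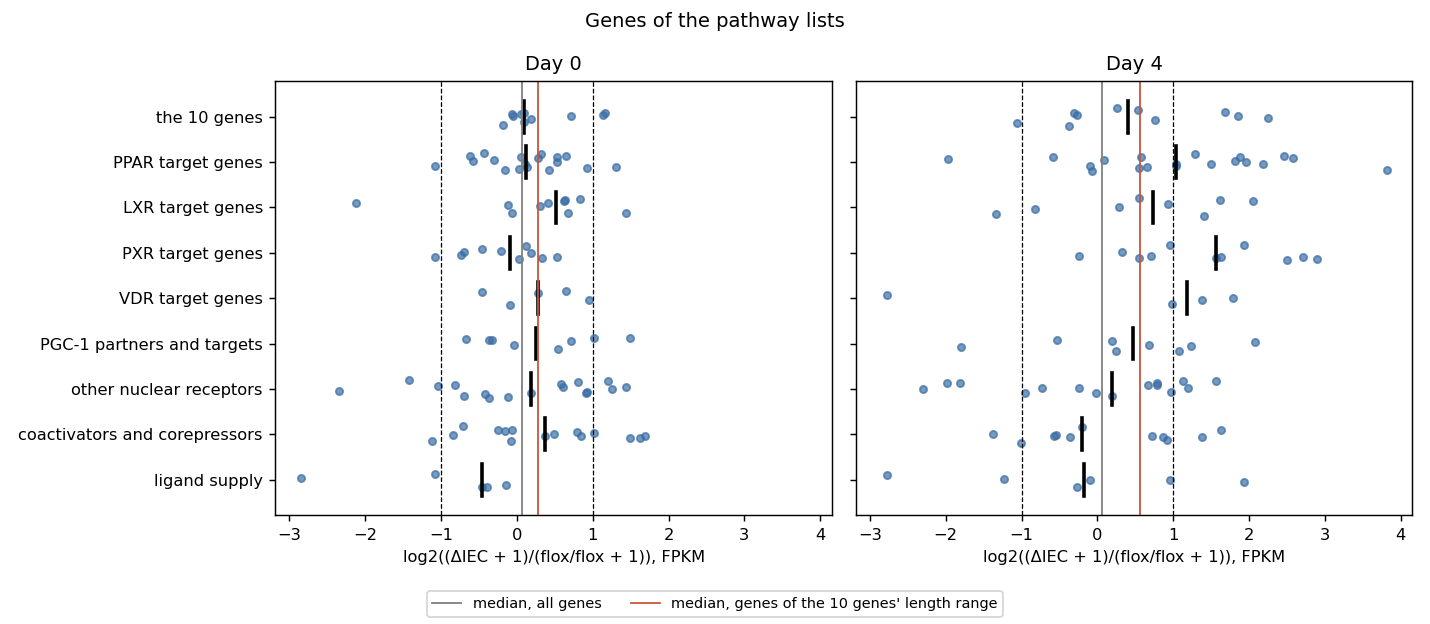
Difference of log2(FPKM + 1), *Tfeb* ΔIEC minus *Tfeb* flox/flox, for each gene of the pathway lists (points) on Days 0 and 4, leaving out genes under 1 FPKM in both genotypes, with list medians (black bars) and the medians of all genes (grey) and of genes in the length range of the 10 genes (red). The PPAR and PXR targets have medians of 1.04 and 1.56 on Day 4, against 0.12 and −0.09 on Day 0, for the genes that passed the filter.

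Of the PGC-1 partners and targets, 3 of 8 were past the line upward on Day 4 and 1 downward, a share upward of 37.5% against 34.1% of all genes in the length range of the 10 genes. The counts were 2 and 0 on Day 0 and 2 and 1 on Day 11. *Pprc1* and *Gabpa* passed the filter on Day 4 through the *Tfeb* ΔIEC value only. The related coactivator *Pprc1* was at 0.451 and 2.42 FPKM, the respiratory gene regulator *Gabpa* at 0.280 and 4.39 FPKM and the mitochondrial transcription factor *Tfam* at 7.13 and 16.2 FPKM, while cytochrome c (*Cycs*) was at 351 and 100 FPKM. Of other nuclear receptors, 3 of 15 (20%) were upward and 3 downward on Day 4, with a median of 0.20, shares not above those of all genes. The 3 downward, *Rara*, *Nr2f6* and *Nr5a2*, passed the filter through the control value only. *Hnf4g*, 1 of the 3 upward, passed the filter through the *Tfeb* ΔIEC value only. The bile acid receptor *Nr1h4* (FXR) was at 3.32 and 9.29 FPKM on Day 0 and at 3.81 and 13.2 FPKM on Day 4, and *Hnf4a*, a master regulator of enterocyte genes, at 24.4 and 46.5 FPKM and at 19.98 and 47.1 FPKM. The retinoic acid receptor *Rara* was at 6.33 and 0.496 FPKM on Day 4. Among 11 coactivators and corepressors on Day 4, 2 were past the line upward, the mediator subunit *Med1* and the deacetylase *Hdac3*, and 2 downward, *Crebbp* and *Carm1*, with a median of −0.20. Genes of ligand supply had 1 of 6 upward, the retinol carrier *Rbp2*, and 2 downward, *Fabp5* and the ileal bile acid carrier *Fabp6* (24.0 and 2.65 FPKM).

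Markers of cell types differed between the genotypes beside these results, with 25.6% of all genes upward and 26.1% downward on Day 4 as the background. On Day 4, 5 of 10 colonocyte markers were past the line upward in *Tfeb* ΔIEC cells and 0 downward, among them the differentiation keratin *Krt20* (101 and 931 FPKM) and the chloride exchanger *Slc26a3* (33.3 and 271 FPKM), although the list's summed level was 33712 FPKM in control and 37135 FPKM in *Tfeb* ΔIEC cells, most of it *Car1*. *Car4* (232 and 147 FPKM), *Krt8* (a log2 difference of −0.33) and *Krt19* (−0.01) were lower in *Tfeb* ΔIEC cells on Day 4, short of the line. On Day 0, 1 colonocyte marker was past the line upward and 2 downward, with sums of 34955 and 28919 FPKM. Of 7 goblet cell markers, 4 were past it downward and 2 upward, with sums of 78505 and 16345 FPKM, led by *Zg16* and *Tff3*, while *Muc2* was at 645 and 1894 FPKM. On Day 0 the goblet sums were 22832 and 15041 FPKM. Enteroendocrine markers summed to 256 and 86.3 FPKM on Day 4, a difference that came from the peptide gene *Pyy* at 209 and 17.8 FPKM, while *Chga* (17.8 and 17.9 FPKM), *Chgb* (a log2 difference of 0.52) and *Gcg* (16.8 and 33.4 FPKM) were not lower in *Tfeb* ΔIEC cells. Of 12 immune markers, 3 of the 5 above the filter were past the line upward, with sums of 25.2 and 174 FPKM that came mainly from *Cd74*, while the macrophage marker *Cd68* was at 0 in all groups and the leukocyte gene *Ptprc* stayed at 0.790 FPKM or less. On Day 0 the immune sums were 43.9 and 21.8 FPKM. Small-intestinal markers summed to 1637 and 9.63 FPKM on Day 4, nearly all of the control sum being the defensin *Defa24*, while lactase (*Lct*) was at 0 in every group. Stromal and adipose markers summed to 5.87 FPKM or less in every group. The lower genes *Tff3*, *Zg16*, *Agr2*, *Pyy* and *Defa24* have short transcripts, of 419 to 784 nt. Among all genes of the 2 shortest length deciles, up to 808 nt, Day 4 medians were −1.83 and −1.28. Of those genes, 66.5% and 60.1% were past the line downward. *Fcgbp* (7927 nt) was also lower, and *Muc2* (711 nt) was higher. The parts of length and of the other cell types in the results were not tested.

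Finally, genes with the most similar course over the 6 values were sought among the 5356 genes of at least 1 FPKM in every value, by the Euclidean distance of centred log2(FPKM + 1). For *Pparg* these were *Glyr1*, *Hiatl1* and *Aplp2* (distances 0.24, 0.28 and 0.28), and 46 genes lay within 0.50. For *Vdr* they were *Caprin1*, *Dnajc10* and *Usp14* (0.16, 0.18 and 0.20), with 127 genes within 0.50. For *Nr1h2* they were *G6pc3*, *Pgpep1* and *Mdh2* (0.14, 0.14 and 0.15), with 454 genes within 0.50. *Caprin1* went from 10.9 FPKM in control to 34.4 FPKM in *Tfeb* ΔIEC cells on Day 4, as *Vdr* did from 7.62 to 26.7 FPKM. The 6 values come from 3 tables, and those of Days 4 and 11 were nearly the same, so they are not 6 separate observations. The nearness is a description of these pooled values.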

How the data were processed

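Colonic epithelial RNA of 12 animals in 6 groups of 2 was analysed. Per the labels and the study's methods, the authors sequenced read pairs on a MiSeq, aligned them by TopHat2 2.0.14 with Bowtie against mm10 and ran Cuffdiff 2.1.1 between the genotypes of each day. The deposited FPKM values are the authors' pooled estimate of each genotype, with 1 table per day. The tables also hold the authors' fold changes, test statistics, p-values and q-values, which were not used. Genotype and day came from the sample labels. Log2 differences used a pseudocount of 1 FPKM and a filter of at least 1 FPKM in either genotype. The 10 genes and all lists were chosen with earlier results of these data known. Named list genes were those past a 4-fold line on Day 4 with at least 5 FPKM in either genotype, at most 4 per list and direction, and for each receptor its most abundant target in untreated control cells; some that met this rule are not reported here, and others were named after their values were seen, as were all genes named beside a count of 5 or fewer. Transcript lengths are medians over GENCODE M21 basic transcripts (47218 of 47632 genes matched), and length medians run over 501 genes of at least 200 nt. The worth of 1 fragment was the median of FPKM times kilobases between 0.2 and 0.7 over single-transcript genes of at least 1500 nt. It is approximate, above all in *Tfeb* ΔIEC cells on Days 4 and 11. There the 10th to 90th percentile ran from 0.277 to 0.636 on Day 4 and from 0.241 to 0.631 on Day 11. Level intervals are exact Poisson and ratio intervals exact binomial (Clopper-Pearson). The fold-change code was tested on simulated data. Python 3.11.15, pandas 2.3.3 and scipy 1.17.1 were used. A total of 8 alternatives were tried.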

Additional observations from a re-analysis of the deposited data

Results flagged for a closer look

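*Ppargc1b* was singled out because its difference between the genotypes had opposite signs on different days. The signs also differed between Days 0 and 4 for *Nr1i2* (−0.05 and 0.76) and *Rxra* (0.09 and −0.30). For *Ppargc1b* the log2 difference, *Tfeb* ΔIEC minus *Tfeb* flox/flox, was 1.13 on Day 0, from 1.11 and 3.63 FPKM, and −0.27 on Day 4 and −0.24 on Day 11. With each value divided by the sum of its group, it was 0.17 on Day 4 and 0.21 on Day 11, so the opposite sign is not settled. The difference between the days was not tested, since a genotype's animals were pooled into 1 value a day, and the values of Days 4 and 11 rest on about 8 to 10 fragments each.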

How the results depend on the processing

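No paired analysis was possible because each genotype has 1 pooled value per day, and for the same reason no animal could be left out. With a pseudocount of 0.1 FPKM, 4 of the 10 genes were past the 2-fold line upward on Day 4 (with *Nr1i2*) and 5 on Day 11 (with *Nr1i2* and *Ppargc1a*). With a pseudocount of 5 FPKM, 0 were past it upward on Day 0, 2 upward on Days 4 and 11 (without *Ppara*) and 0 downward on Days 4 and 11. With at least 5 FPKM in either genotype, 4 genes were left, and 1 was past the line upward on Day 0 and 2 on Days 4 and 11, where *Ppara* was left out. With values divided by the sum of their group, 5 were past it upward and 0 downward on Days 4 and 11. With the running median over transcript length subtracted, 1 was past it upward on Day 0 (without *Ppargc1b*), 2 upward on Day 11 (without *Ppara*), 2 downward on Days 4 and 11 (with *Rxra*), and the median of the 10 genes on Day 0 was −0.17. Past a 4-fold line, 1 gene lay upward on Day 4, 0 upward on Days 0 and 11, and 0 downward on Days 4 and 11. Without a filter, and with values centred on the median of the day, these counts did not change. Of 30 differences (10 genes on 3 days), 12 took the other sign under at least 1 alternative, and 0 of those were among the 10 past the 2-fold line. What these depend on beyond the alternatives' construction was not tested.

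The spread between animals is not known from the pooled values, and the authors' test results were not used, so no difference here has a replicate check. Counting intervals are approximate and cover counting error only. Genes under about 2 FPKM rest on few fragments, and for *Nr1i2*, *Nr1h3*, *Rxra* and *Ppargc1a* a difference between the genotypes was not detectable at this depth.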

Other observations

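A few further genes of the lists are given as values, in the order control and *Tfeb* ΔIEC cells, and were chosen after their values were seen. The retinoic acid receptor *Rara* was listed at 0 in *Tfeb* flox/flox cells on Day 0 and was at 0.887 FPKM in *Tfeb* ΔIEC cells, whereas on Day 4 it was at 6.33 and 0.496 FPKM. *Rarg* was at 0.165 and 1.68 FPKM on Day 0 and at 0 and 0.463 FPKM on Day 4. *Rbp2*, a cellular retinol carrier, was at 12.6 and 9.36 FPKM on Day 0 and at 1.24 and 7.56 FPKM on Day 4. *Aldh1a1*, which makes retinoic acid, was at 47.2 and 34.2 FPKM and at 15.6 and 31.2 FPKM. The glucocorticoid receptor *Nr3c1* was at 8.77 and 0.917 FPKM on Day 0 and at 0.580 and 1.72 FPKM on Day 4, so its sign differed between the days.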
